A study of Homo sapiens with 6 samples.

Results

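To determine how the mRNAs of the microtubule building blocks stood after heat shock, 10 tubulin genes were followed in HEK293 cells, an adherent human embryonic kidney line. The genes were 4 alpha tubulins (TUBA1A, TUBA1B, TUBA1C and TUBA4A), 5 beta tubulins (TUBB, TUBB2A, TUBB2B, TUBB3 and TUBB6) and the gamma tubulin TUBG1. They were taken by name rather than by a threshold on a measured value, and they are 10 of the 24154 genes with a summed value. Total RNA depleted of ribosomal RNA was sequenced from 3 control and 3 heat shock libraries. All cells grew at 37°C in DMEM with serum. Cells were taken while being passaged, and those of the heat shock group spent 30 minutes at 45°C in a tube in a water bath, while control cells were left untreated. The paper places the sequenced time point at 30 minutes post heat shock. All 6 libraries come from 1 cell line, and nothing in the labels states that the 3 libraries of a group came from separate cultures, so p-values measure the spread between these libraries, which may be technical.

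Microtubules are hollow polymers of alpha and beta tubulin, which pair into a dimer before they are added to the growing end. Gamma tubulin sits in a ring complex at the centrosome and starts new microtubules. Newly made alpha and beta tubulin need prefoldin, the chaperonin CCT and a set of tubulin cofactors to fold, and cells adjust tubulin mRNA to the pool of unused dimer: the factor TTC5 reads the first residues of the emerging chain and marks the mRNA for decay while it is being translated. The signal for this lies at the very start of the reading frame.

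That start is shown here because it splits the members by type. The first 24 coding bases of the canonical transcript in GENCODE release 44 mapped to GRCh37 are given, with the first 4 codons in capitals.
TUBA1A: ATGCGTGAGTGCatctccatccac
TUBA1B: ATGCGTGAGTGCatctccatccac
TUBA1C: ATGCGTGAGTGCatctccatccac
TUBA4A: ATGCGTGAATGCatctcagtccac
TUBB: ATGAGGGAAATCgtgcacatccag
TUBB2A: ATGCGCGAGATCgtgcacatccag
TUBB2B: ATGCGTGAGATCgtgcacatccag
TUBB3: ATGAGGGAGATCgtgcacatccag
TUBB6: ATGAGGGAGATCgtgcacatccag
TUBG1: ATGCCGAGGGAAatcatcacccta
TUBA1A, TUBA1B and TUBA1C shared all 24 bases, and so did TUBB3 and TUBB6. TUBG1, which does not enter the dimer, began with other codons.

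The members also share long stretches further on, and this limits how surely a fragment can be given to 1 gene. TUBB2A and TUBB2B, neighbors on chromosome 6, were identical at 98.2% of 1335 aligned coding bases. TUBA1B was identical to TUBA1A at 97.19% of 1353 and to TUBA1C at 97.25% of 1347 coding bases. Of all windows of 50 coding bases, 72.55% of those of TUBB2A and of TUBB2B, and 68.25% of those of TUBA1B, occurred unchanged in another member. For TUBA1A and TUBA1C these shares were 58.28% and 57.09%. TUBB, TUBA4A and TUBG1 shared no such window with another member. Genes outside the members, such as the second gamma tubulin gene TUBG2, and the copies of TUBB on alternate haplotypes were not compared. By sharing among the members alone, values of TUBA1A, TUBA1B, TUBA1C, TUBB2A and TUBB2B as single genes are less certain than those of TUBB and TUBG1.

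In GRCh37, TUBA1B lies at chr12:49521565-49525180 and TUBA1A at chr12:49578469-49582863, both on the minus strand, and TUBA1C at chr12:49582519-49668383 on the plus strand. TUBB lies at chr6:30685212-30693315 on the plus strand, TUBB2A at chr6:3153731-3157778 and TUBB2B at chr6:3223558-3231964 on the minus strand. TUBB6 lies at chr18:12307668-12344319, TUBB3 at chr16:89987800-90005169 and TUBG1 at chr17:40761659-40767256, all on the plus strand, and TUBA4A at chr2:220114432-220142624 on the minus strand. All 10 are protein-coding. The canonical transcript has 4 exons for every alpha and beta member and 11 for TUBG1.

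The values are FPKM (fragments per unit of transcript length and of library size, as Cufflinks computes them), summed for each gene over its transcripts in a library. FPKM corrects for length, so levels can be compared between genes. The libraries differed before any tubulin was considered. A common factor was taken for each library as the median ratio to the geometric mean of the libraries over the 972 genes above 10 FPKM in all 6, with the tubulin and microtubule genes left out. It was 0.948, 0.440 and 0.967 in control replicates 1 to 3, and 2.15, 2.34 and 0.492 in heat shock replicates 1 to 3. Heat shock replicate 3 thus stood with control replicate 2, and heat shock replicates 1 and 2 stood above every control. No count of reads is given, and the coverage behind 1 FPKM, which stands in for depth, was up to 2.03 times that of the library with the least. Transcripts without a strand numbered 194489 in control replicate 2 and 151889 in heat shock replicate 3, and 17304 and 30334 in heat shock replicates 1 and 2. Their part in the differences between libraries was not tested.

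The neuronal lineage genes known from HEK293 were present, with 7 markers summing to between 10.99 and 18.6 FPKM in controls and between 9.96 and 52.5 FPKM in heat shock libraries, although STMN2 and DCX stayed below 0.5 FPKM. The high sums were those of heat shock replicates 1 and 2, and their part in the tubulin values was not tested. These sums are not divided by the common factor, which was 2.15 and 2.34 in those libraries. In whole cultures, fewer cells of a type and less RNA per cell cannot be told apart. The 4 kidney lineage markers summed to between 4.94 and 8.12 FPKM over all 6 libraries. The 6 markers of blood, liver, epithelial, connective and vessel cells summed to at most 5.59 FPKM, most of it KRT5 in control replicate 1. DNAJB1, an HSP70 cochaperone gene named here after its values were seen, was at 7.32, 4.84 and 9.18 FPKM in controls and 121, 116 and 34.0 FPKM in heat shock libraries, so all heat shock libraries lay above all controls.

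TUBB, the main beta tubulin of dividing cells, was at 79.9, 32.3 and 70.2 FPKM in controls, and after heat shock at 157, 174 and 38.4 FPKM. Heat shock replicates 1 and 2 were above all controls and replicate 3 was below 2 of them, so the groups overlapped. The log2 fold change was 0.84 ± 0.96 (SE, n = 3 against 3; limma, adjusted p = 0.711). TUBB2B, a beta tubulin known from the developing brain, was at 20.1, 9.96 and 29.5 FPKM in controls and 66.8, 49.3 and 11.1 FPKM after heat shock. TUBB6, a broadly expressed beta tubulin, was at 12.8, 5.35 and 13.8 FPKM in controls and 30.0, 31.6 and 5.44 FPKM after heat shock. TUBB2A was lower, at 5.20, 3.46 and 6.42 FPKM in controls and 11.3, 14.5 and 2.72 FPKM after heat shock. In each of these genes the order of the libraries was close to that of the common factor.

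TUBB3, the beta tubulin used as a neuronal marker, went its own way. It was listed at 0 in control replicate 1 and was at 3.62 and 4.36 FPKM in the other controls. In heat shock libraries it was at 2.03, 2.25 and 3.84 FPKM. The groups overlapped. Part of these sums came from assembled transcripts that a count by exon overlap, described further on, did not give to TUBB3. By that count the controls held 0, 1.87 and 2.07 FPKM and the heat shock libraries 2.03, 2.25 and 0.675 FPKM, again with overlap. With annotated transcripts alone the heat shock values were the same and the controls held 0, 0.582 and 0.369 FPKM. There the groups did not overlap, as in 3.39% of all genes tested in that way, and the gene fell short of the mean of 1 FPKM needed for the test. The locus overlaps its neighbors MC1R and TCF25 in the deposited table, so its values are the least certain of the beta members.

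TUBA1B, the most abundant alpha tubulin in this line, was at 395, 183 and 236 FPKM in controls and 365, 329 and 207 FPKM after heat shock, a log2 fold change of 0.18 ± 0.85 (SE, n = 3 against 3; limma, adjusted p = 0.91). Its value depended on how assembled transcripts were counted, as described further on. TUBA1C, another ubiquitous alpha tubulin, was at 22.6, 9.11 and 18.7 FPKM in controls and 55.1, 54.0 and 9.92 FPKM after heat shock. TUBA1A, the alpha tubulin of young neurons, was at 5.91, 3.12 and 5.94 FPKM in controls and 13.1, 15.2 and 2.78 FPKM after heat shock. In both genes heat shock replicates 1 and 2 lay above all controls and replicate 3 lay within or below them. TUBA4A, an alpha tubulin known from blood platelets and nerve, was low, at 2.52, 0.883 and 1.29 FPKM in controls and 1.94, 1.49 and 1.35 FPKM after heat shock.

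TUBG1, the gamma tubulin of the nucleating ring, was at 56.4, 18.5 and 45.8 FPKM in controls and 122, 115 and 24.1 FPKM after heat shock. As for TUBB, heat shock replicates 1 and 2 lay above all controls and replicate 3 below 2 of them, with a log2 fold change of 0.92 ± 0.96 (SE, n = 3 against 3; limma, adjusted p = 0.711).

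Over the 13026 genes that averaged 1 FPKM or more, limma on log2(FPKM + 1) called 0.023% at an adjusted p under 0.05 and more than 2-fold, and 0 of the 10 tubulin genes. At an unadjusted p under 0.05, 2.07% of all genes were higher and 1.62% lower, and again 0 tubulin genes. In 0 tubulin genes did the heat shock libraries all lie beyond the controls, against 3.71% of all genes above and 2.26% below. The fold change was above 0 for 10 of 10 members, as it was for 73.0% of all genes tested, with a median log2 fold change of 0.74 for the members and 0.45 for all. That gap narrowed among abundant genes. Of 2915 genes averaging at least 10 FPKM, 2745 were above 0, with a median of 0.82. The 6 members among them were all above 0, with a median of 0.84. The limma 95% intervals were wide, from -1.23 to 2.90 on the log2 scale for TUBB. The result turned on heat shock replicate 3: without it, 7 of 10 members were higher at an unadjusted p under 0.05, where 39.6% of all genes were, and still 0 were called, where 0.0768% of all were.

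**Figure D1:**
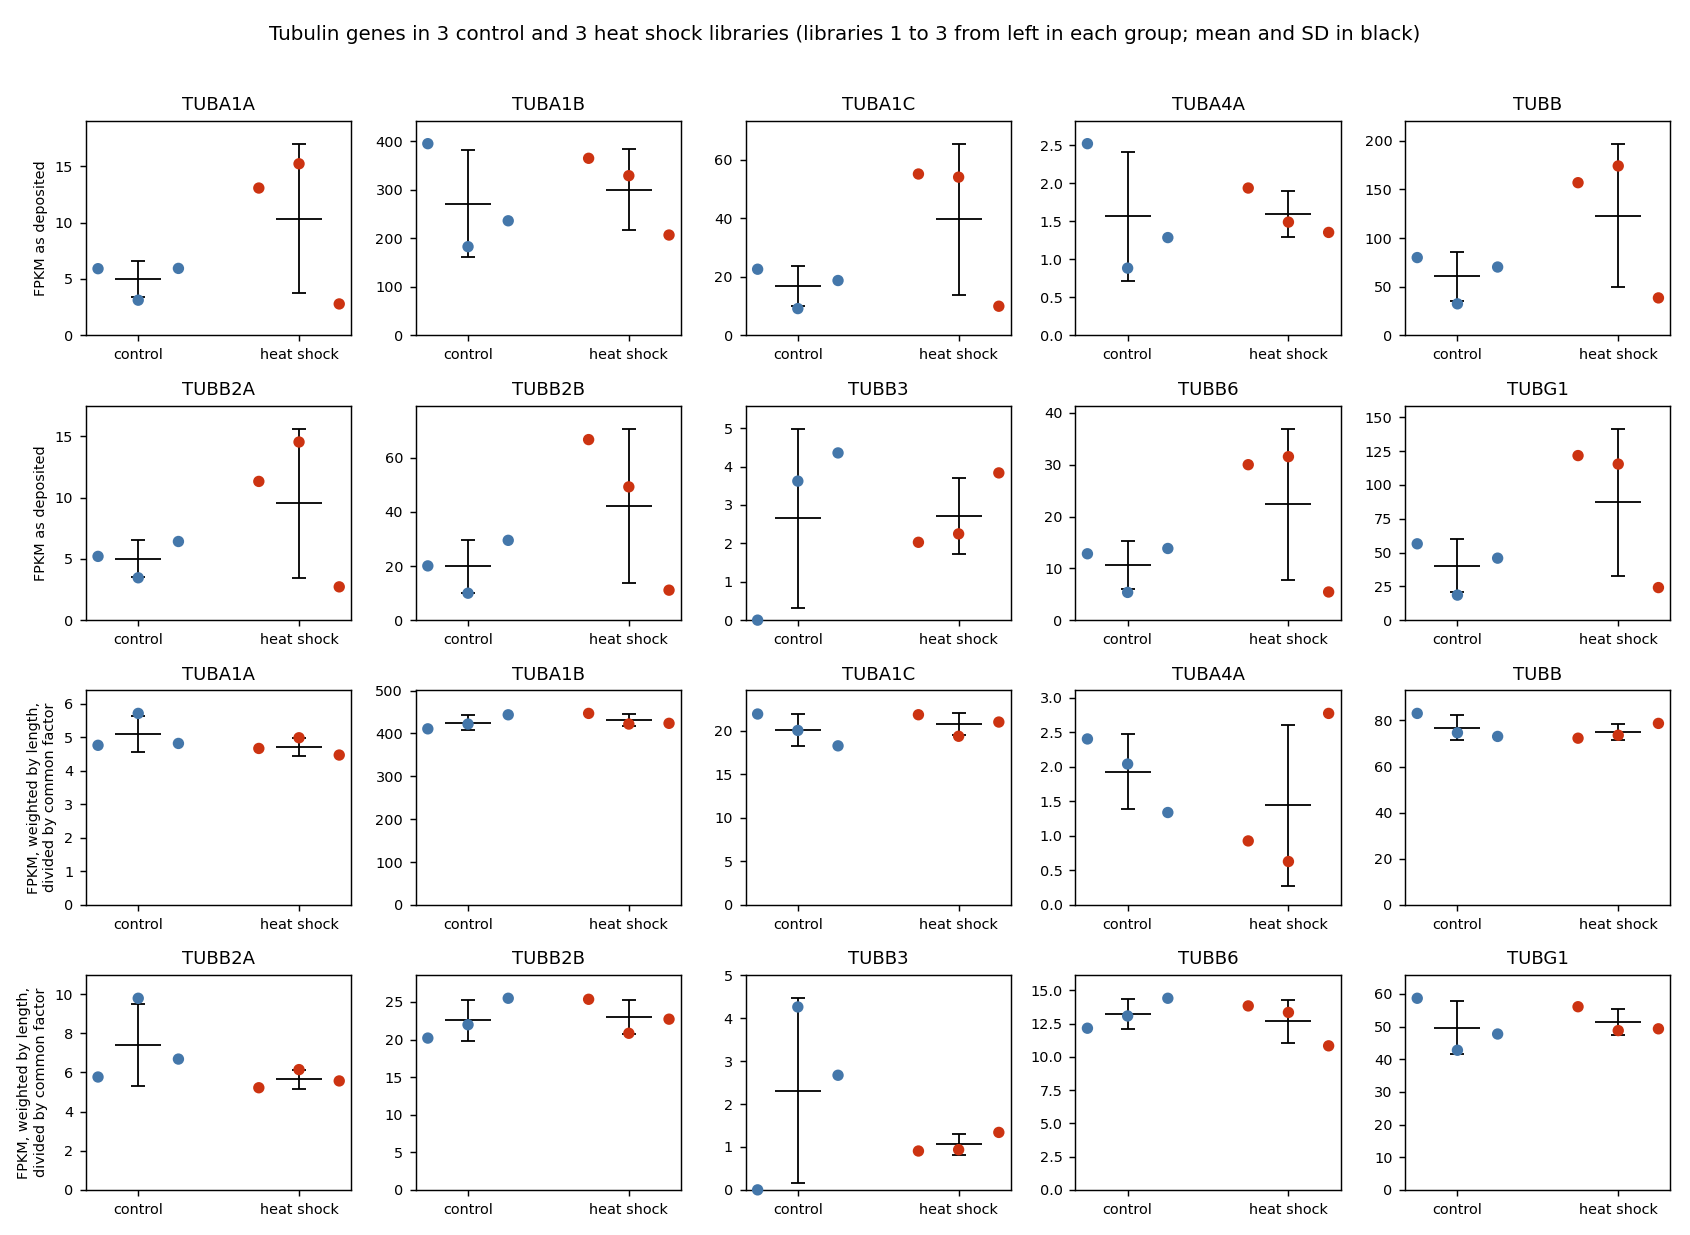
Level of each of the 10 tubulin genes (vertical axis, FPKM from 0) in 3 control libraries (blue) and 3 heat shock libraries (red), with the group mean and SD in black. In the 2 upper rows, as deposited, heat shock replicates 1 and 2 stand above replicate 3 in all genes but TUBB3; in the 2 lower rows, weighted by transcript length and divided by the common factor, the libraries of TUBA1B span 411 to 447 and those of TUBB 72.3 to 83.1.

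The fold between the highest and lowest of the 6 libraries had a median of 5.47 over the 9 members other than TUBB3. Divided by the common factor, the same 9 genes had a median of 1.41. TUBB was then at 84.3, 73.5 and 72.5 in controls and 72.9, 74.4 and 78.1 after heat shock. Its log2 fold change was -0.03 ± 0.10 (SE, n = 3 against 3; limma, adjusted p = 0.957), with a 95% interval from -0.28 to 0.23. TUBG1 was at 59.6, 42.1 and 47.4 in controls and 56.5, 49.3 and 48.9 after heat shock, and TUBB6 at 13.5, 12.2 and 14.3 and at 13.9, 13.5 and 11.04. In all 3 genes the groups overlapped.

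On that scale 0% of 13815 genes were called, and 0 of the 10 members. At an unadjusted p under 0.05, 0.68% of all genes were higher and 2.46% lower, and 0 members. The median log2 fold change was -0.07 for the members and -0.24 for all genes tested, and 3 of 10 members were above 0, against 26.4% of all genes. The scale is relative to other abundant mRNAs, so it cannot show whether the tubulin mRNAs and those genes moved together in the cell. DNAJB1 had a log2 fold change of 2.51 ± 0.19 on the same scale (SE, n = 3 against 3; limma, adjusted p = 0.141), so it was not called either, but its 95% interval, from 2.03 to 2.99, lay beyond that of every tubulin gene other than TUBB3.

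TUBA1B stood out from the other members here. Divided by the common factor it was at 417, 415 and 244 in controls and 169, 140 and 419.8 after heat shock, with a log2 fold change of -0.69 ± 0.45 (SE, n = 3 against 3; limma, adjusted p = 0.911). The libraries did not split by treatment: control replicates 1 and 2 and heat shock replicate 3 lay within 415 to 419.8, and the other 3 libraries lay below. In those same 3 libraries Cufflinks had assembled a second TUBA1B transcript and grouped it with both TUBA1B and TUBA1A, so that the sum counted it to neither.

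This transcript was at 198 FPKM in control replicate 3 (95% interval of Cufflinks 188 to 207), at 785 in heat shock replicate 1 (767 to 802) and at 989.7 in heat shock replicate 2 (969 to 1010). It was absent from the other 3 libraries. It made up 45.6%, 68.3% and 75.1% of the TUBA1B FPKM of its library. It follows the annotated gene on the minus strand of chromosome 12 but skips a stretch inside the last annotated exon, and the stretch differed in each library. It was 73 bases long in control replicate 3, 410 in heat shock replicate 1 and 435 in heat shock replicate 2, out of 1353 coding bases, and all of the skipped bases are coding. Only the 435-base stretch is a multiple of 3.

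TUBA1C, at its own locus, had the same skipped stretches in heat shock replicates 1 and 2. In heat shock replicate 1 an assembled TUBA1C transcript at 33.4 FPKM lacked 410 bases at the same coding positions as in TUBA1B. In heat shock replicate 2 one at 36.4 FPKM lacked 435 bases, again at the same coding positions. Within the stretches the genes differed at 12 of 410 and at 12 of 435 bases. In TUBA1C these transcripts were 60.6% and 67.5% of the gene's FPKM.

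**Figure D2:**
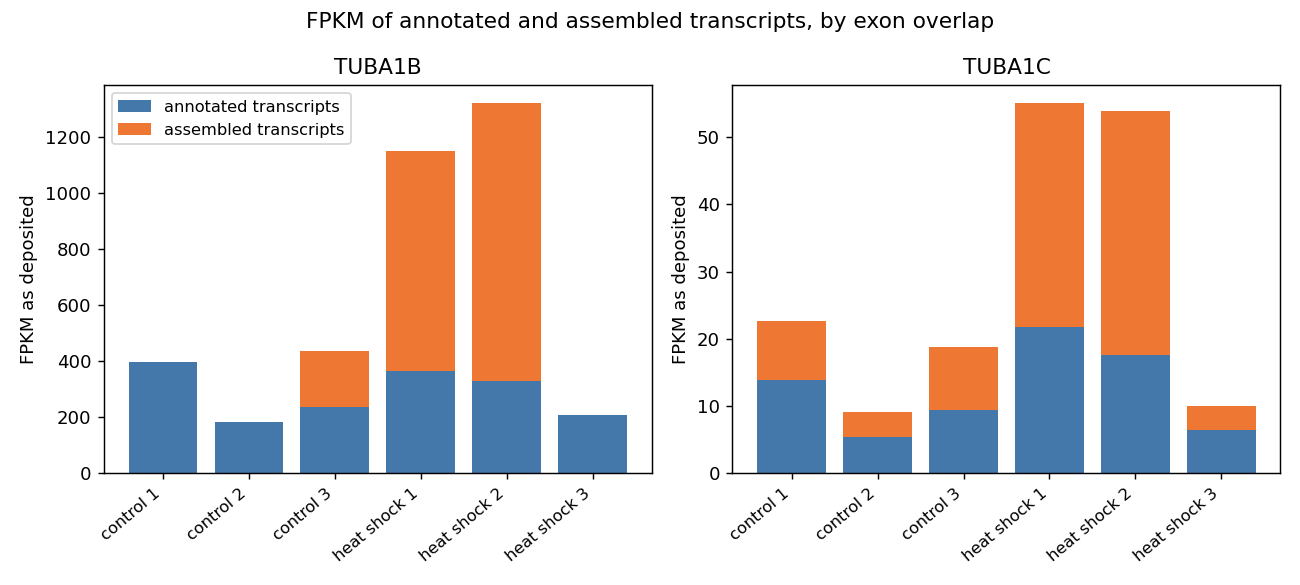
FPKM as deposited (vertical axis) of TUBA1B and TUBA1C in each of the 6 libraries, stacked as annotated transcripts (blue) and assembled transcripts (orange) counted by exon overlap. The assembled part of TUBA1B appears in control replicate 3 at 198 and in heat shock replicates 1 and 2 at 785 and 989.7, and is 0 in the other 3 libraries.

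Each assembled transcript was therefore also counted to the gene that held most of its exonic bases, a choice made after these values were seen. TUBA1B then had 395, 183 and 434 FPKM in controls and 1149, 1319 and 207 FPKM after heat shock. A shorter transcript has more FPKM for the same number of fragments, and the assembled forms were 1681, 1348 and 1183 bases long against 1751 for the annotated one. Each FPKM was then weighted by the length of its transcript over that of the longest annotated transcript of the gene. The heat shock values became 969, 998 and 207. Divided by the common factor of the same sums, which rests on 811 genes, TUBA1B was at 411, 422 and 443 in controls and 447, 422 and 424 after heat shock, all 6 libraries lying within a narrow range. The log2 fold change was 0.02 ± 0.05 (SE, n = 3 against 3; limma, adjusted p = 0.965), with a 95% interval from -0.11 to 0.15.

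Of the other members, TUBB had on this scale a log2 fold change of -0.04 with a 95% interval from -0.22 to 0.14, TUBA1C of 0.05 with one from -0.19 to 0.28, and TUBB2B of 0.03 with one from -0.27 to 0.32. TUBA1A, TUBB6 and TUBG1 had intervals within -0.38 to 0.38. A change of 2-fold, which is 1 on this scale, lay outside the interval of TUBA4A on the higher side only and inside that of TUBB3 on both sides. TUBB2A was the member next furthest from 0, at -0.31 with an interval from -0.79 to 0.17, and its control replicate 2 at 9.79 stood above the other 5 libraries at 5.22 to 6.68. An assembled TUBB2A transcript there was 2520 bases long against 1619 for the annotated one, and the weighting raises such longer forms. By the common factor without the weighting, that library was at 7.86. Of 11846 genes tested, 0% were called, and 0 of the 10 members. At an unadjusted p under 0.05 were 0.633% of all genes higher, 2.48% lower, and 0 members.

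**Figure D3:**
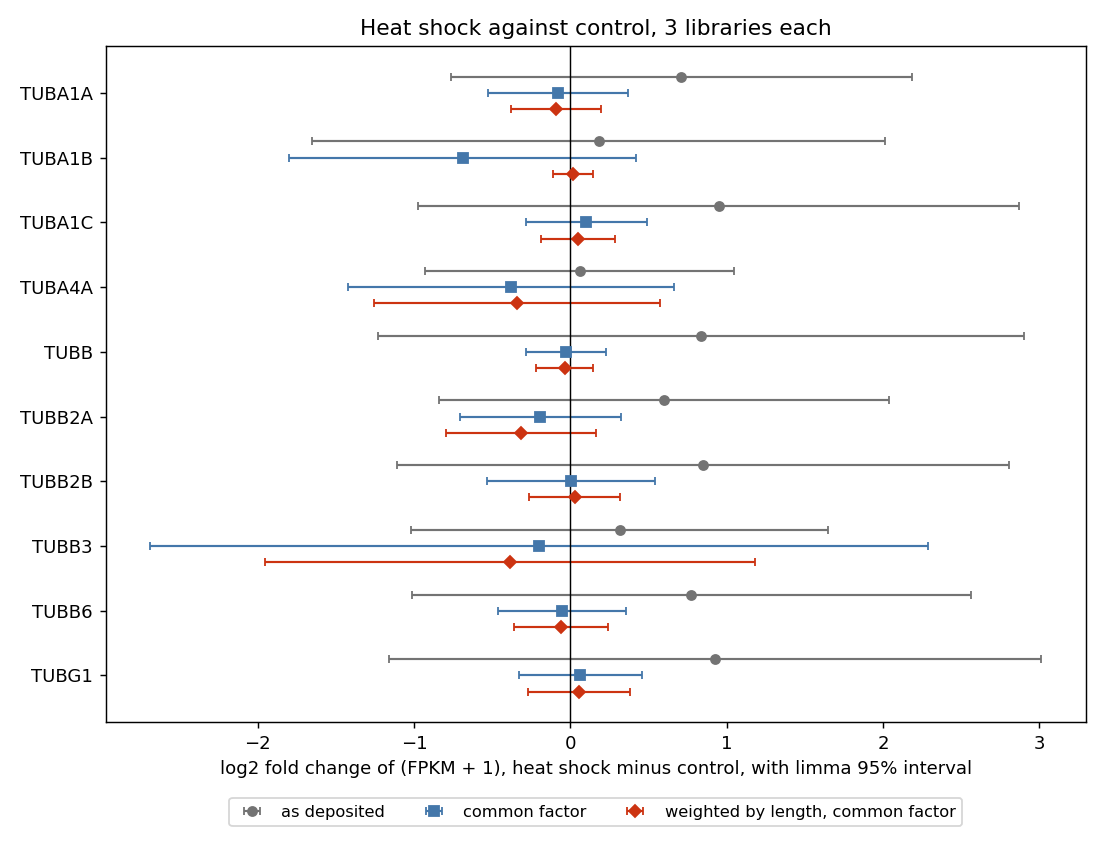
Log2 fold change of (FPKM + 1), heat shock minus control (horizontal axis), of each tubulin gene with its limma 95% interval, as deposited (grey), divided by the common factor (blue) and weighted by length and divided by the common factor (red). All 10 grey points lie above 0 with wide intervals, and for TUBB the interval narrows from -1.23 to 2.90 to -0.22 to 0.14; every interval includes 0.

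The order of the levels was the same in both groups for the abundant members. Weighted by length and divided by the common factor, TUBA1B had a mean of 425 ± 16.6 in controls and 431 ± 13.9 after heat shock (SD, n = 3 each). TUBB followed with 76.9 ± 5.37 and 74.9 ± 3.39, and TUBG1 with 49.7 ± 8.15 and 51.4 ± 4.07. These 3 did not overlap one another in any library. TUBB2B, with 22.6 ± 2.70 and 22.97 ± 2.27, and TUBA1C, with 20.1 ± 1.83 and 20.8 ± 1.26, overlapped and could not be ranked. TUBB6 stood below both, between 10.8 and 14.4 in the 6 libraries. TUBB2A (5.22 to 9.79) overlapped TUBA1A (4.47 to 5.71), and TUBA4A (0.629 to 2.77) overlapped TUBB3 (0 to 4.26). The weighting lowers TUBA1A, because its longest annotated transcript, of 2476 bases, was at 0 FPKM in all libraries but control replicate 2. By the common factor without the weighting, TUBA1A spanned 5.65 to 7.09 and TUBB2A 5.26 to 7.86.

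As each tubulin dimer holds 1 alpha and 1 beta chain, the ratio of the members' summed mRNAs was taken in each library. Scaling between libraries cancels there. Tubulins outside the members, such as the beta tubulin TUBB4B, were left out, so the ratio is not that of all alpha to all beta mRNA. Counted by the grouping of Cufflinks, the alpha to beta ratio was 3.61, 3.58 and 2.11 in controls and 1.63, 1.47 and 3.59 after heat shock. With assembled transcripts counted by exon overlap and weighted by length it was 3.63, 3.63 and 3.82 in controls and 4.03, 3.89 and 3.79 after heat shock. The low ratios were found in the 3 libraries whose assembled TUBA1B transcript was not counted in the first sum, and in the second sum no library lay below 3.63. The groups overlapped, with heat shock replicate 3 just below control replicate 3. By exon overlap without the weighting it was 3.60, 3.695 and 3.77 in controls and 4.57, 5.11 and 3.78 after heat shock, where the groups did not overlap, so the result depended on how a shorter assembled transcript was counted. FPKM measures mRNA, and gives no value for the chains made from it.

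The shares of the isotypes were taken from the length-weighted sums of the alpha and beta members alone. TUBB4B, a beta tubulin outside the members, was thus not counted, so the shares are not of all beta tubulin. Divided by the common factor, its length-weighted level was 49.9, 50.9 and 43.3 in controls and 40.1, 43.2 and 41.4 after heat shock. TUBA1B was 94.0% ± 0.714 of alpha in controls and 94.1% ± 0.340 after heat shock (SD, n = 3 each). TUBA1C was 4.45% ± 0.541 and 4.53% ± 0.171, and TUBA1A, which the weighting lowers, 1.13% ± 0.126 and 1.03% ± 0.0744. TUBB was 62.9% ± 4.93 of beta in controls and 63.9% ± 2.30 after heat shock, TUBB2B 18.4% ± 2.17 and 19.6% ± 1.77, and TUBB6 10.8% ± 0.895 and 10.8% ± 1.502. TUBB2A was 6.05% ± 1.66 and 4.82% ± 0.475, and TUBB3 1.88% ± 1.74 and 0.903% ± 0.193. Each of these differences in share was smaller than the larger SD of the groups, and no test was made on shares. The low members varied most between libraries, with TUBA4A from 0.141% to 0.614% of alpha and TUBB3 from 0 to 3.45% of beta.

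Summed over all 10 genes, the length-weighted level divided by the common factor was 619.6, 616 and 638 in controls and 648, 610.5 and 620.3 after heat shock. The alpha sum was 439.8, 449.7 and 468 in controls and 474, 447 and 452 after heat shock. The beta sum was 121, 124 and 122 in controls and 118, 115 and 119 after heat shock, so that here the heat shock libraries all lay below the controls, with means of 122 ± 1.29 against 117 ± 2.19 (SD, n = 3 each). The beta sums overlapped when divided by the common factor without the weighting, at 124.5, 124.4 and 128 in controls and 124, 116 and 124.9 after heat shock, and no test was made on sums. Undivided, the 10 genes together spanned 267 to 1444 FPKM.

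**Figure D4:**
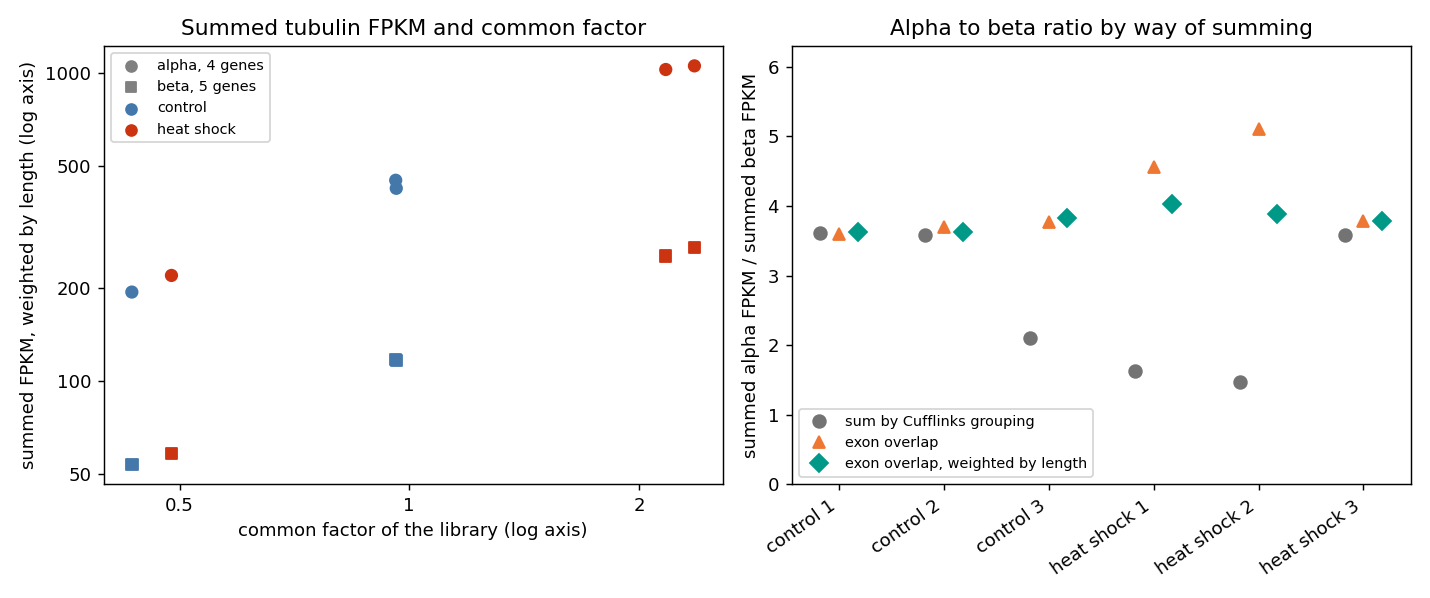
Left, the summed length-weighted FPKM of 4 alpha (circles) and 5 beta (squares) tubulin genes against the common factor of the library, both on log axes, in control (blue) and heat shock (red) libraries; the sums rise with the factor, from control replicate 2 at a factor of 0.433 to heat shock replicate 2 at 2.36. Right, the alpha to beta ratio in each library for 3 ways of summing, of which the length-weighted one spans 3.63 to 4.03.

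The genes whose profile was most like that of the summed tubulin FPKM as deposited were the small Cajal body RNA SCARNA17 (Pearson's r = 0.999 over 6 libraries), PRKCSH, YBX1, UBE2B and H2AX (r = 0.998 or 0.999, as for PRKCSH). That sum leaves out the assembled TUBA1B transcript that Cufflinks had also grouped with TUBA1A. The likeness was common: of 2886 genes with at least 10 FPKM on average, 1609 had r above 0.9 and the median was 0.916. All of them share the scale of the library.

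In the deposited table of pooled values, 17 of 117001 loci held a tubulin gene. The authors' pooled FPKM was 597 for control and 2666 for heat shock at TUBA1B, 96.8 and 419 at TUBB, 49.2 and 220.0 at TUBG1, and 20.6 and 102 at TUBB2B. At TUBA1C it was 19.1 and 88.7, at TUBB6 14.4 and 71.9, at TUBA1A 6.23 and 29.1, at TUBB2A 5.37 and 24.4, and at TUBA4A 1.45 and 4.004. TUBB3 was merged with MC1R and TCF25 into 1 locus, at 15.2 and 55.5. The remaining 7 loci, copies of TUBB on alternate haplotypes of chromosome 6, were listed at 0 in both groups. For TUBB, the heat shock value of 419 lay above every single heat shock library, of which the highest was 174, whereas the control value of 96.8 was nearer to the highest control at 79.9. Heat shock values also lay above every heat shock library at TUBG1 (220.0 against at most 122) and TUBB6 (71.9 against at most 31.6). The pooled values are of merged loci and may be on another scale than those of single libraries, which was not tested. The table gives 1 value for each group and no spread.

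Among the genes that work with tubulin, 0 of the 63 tested of 72 listed were called as deposited, where 0.023% of all genes were. At an unadjusted p under 0.05, 2 were higher and 1 lower, against 2.07% and 1.62% of all genes. The median log2 fold change of the 63 was 0.50, close to the 0.45 of all genes. Among genes averaging at least 10 FPKM, it was 0.80 for 23 list genes and 0.82 for all. With the common factor, 0 were higher and 6 lower, against 0.68% and 2.46% of all genes, with a median of -0.18 against -0.24, so the direction depended on the scale.

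Of 13 other tubulins, 9 were tested. At an unadjusted p under 0.05, 0 were higher and 1 lower, against 2.07% and 1.62% of all genes. Their median log2 fold change was -0.22, against 0.45 for all genes, and for the 2 that averaged at least 10 FPKM it was 0.57 against 0.82. Divided by the common factor, 2 were lower and the median was -0.51, against 2.46% and -0.24 for all genes, and weighted by length as well 2 of 8 were lower with a median of -0.38, against 2.48% and -0.12. On both scales these were TUBA3E and the second gamma tubulin gene TUBG2, named after its values were seen, with TUBG2 at -1.02 by the common factor (limma, unadjusted p = 0.0309, adjusted p = 0.911). TUBB4B, a beta tubulin of cilia and dividing cells, was the most abundant, at 48.0, 22.1 and 41.6 FPKM in controls and 82.9, 102 and 22.7 FPKM after heat shock. TUBE1, the epsilon tubulin of centrioles, had the largest fold change of this list, 0.88 ± 0.69 (SE, n = 3 against 3; limma, adjusted p = 0.711). TUBA3E had the smallest, at 4.89, 1.36 and 1.11 FPKM in controls and 0.00694, 0.185 and 0.516 FPKM after heat shock, all below the controls. Its log2 fold change was -1.34 ± 0.54 (SE, n = 3 against 3; limma, unadjusted p = 0.0276, adjusted p = 0.711), and it is a low gene with near-identical relatives.

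For tubulin folding, 12 of 13 genes were tested. At an unadjusted p under 0.05, 2 were higher and 0 lower, against 2.07% and 1.62% of all genes. The median log2 fold change was 0.90, against 0.45 for all genes, and for the 9 that averaged at least 10 FPKM it was 0.91 against 0.82. With the common factor, 0 were higher or lower at that level, against 0.68% and 2.46% of all genes, and the median was 0.05 against -0.24. PFDN5, a prefoldin subunit that carries unfolded tubulin, was the most abundant, at 131.5, 57.4 and 131.4 FPKM in controls and 491, 339 and 63.4 FPKM after heat shock. PFDN6, of the same complex, had the largest fold change, 2.19 ± 0.92 (SE, n = 3 against 3; limma, unadjusted p = 0.0341, adjusted p = 0.711), but was listed at 0 in control replicate 1 and was at 6.47 and 11.7 FPKM in the other controls. The other gene at that level was TBCD, a cofactor that holds beta tubulin, with 1.77 (limma, unadjusted p = 0.0326, adjusted p = 0.711), named after its values were seen. TBCB, a cofactor that binds alpha tubulin, had the smallest fold change. It was at 19.3, 82.2 and 71.5 FPKM in controls and 9.72, 14.4 and 21.9 FPKM after heat shock, which overlapped, with a log2 fold change of -1.67 ± 0.87 (SE, n = 3 against 3; limma, adjusted p = 0.711).

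All 10 genes of the gamma tubulin ring complex were tested, and 0 passed an unadjusted p under 0.05 in either direction. Their median log2 fold change was 0.63, against 0.45 for all genes, and for the 4 that averaged at least 10 FPKM it was 0.98 against 0.82. MZT2B, a small subunit of the ring, had both the highest mean and the largest fold change, at 159, 82.8 and 454 FPKM in controls and 902, 5928 and 86.8 FPKM after heat shock. A single library, heat shock replicate 2, set that mean. Weighted by length and divided by the common factor, MZT2B was at 166, 191 and 259 in controls and 217, 578 and 178 after heat shock. TUBGCP5, another ring subunit, had the smallest fold change, 0.01, at 0.530 to 3.08 FPKM.

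Of 22 microtubule-associated proteins, 18 were tested, with 0 at an unadjusted p under 0.05. Their median log2 fold change was 0.06, against 0.45 for all genes, and for the 6 that averaged at least 10 FPKM it was 0.75 against 0.82. STMN1, which binds free tubulin dimers, was the most abundant at 57.3, 21.5 and 53.7 FPKM in controls and 117, 137 and 28.5 FPKM after heat shock. CKAP5, a polymerase that adds dimers to the growing end, had the largest fold change at 1.04 ± 0.77, and MAPRE2, an end-binding protein, the smallest at -0.65 ± 0.94 (SE, n = 3 against 3; limma, adjusted p = 0.711 and 0.730). Divided by the common factor, the list had a median of -0.56 against -0.24 for all genes, and 3 of its genes were lower at an unadjusted p under 0.05, against 2.46% of all genes. Weighted by length as well, 2 were lower, against 2.48% of all genes, and the median was -0.18 against -0.12. The 3, named after their values were seen, were MAP4, MAPRE2 and MAP1B. MAP4, which stabilizes microtubules outside neurons, was at 13.2, 11.95 and 11.005 in controls and 4.55, 5.62 and 5.16 after heat shock, a log2 fold change of -1.10 ± 0.18 (SE, n = 3 against 3; limma, unadjusted p = 0.000938, adjusted p = 0.857). Weighted by length, its values were 6.18, 6.41 and 5.86 in controls and 4.39, 4.49 and 5.20 after heat shock, so the groups stayed apart but less far. Those of MAPRE2 were then 8.58, 7.49 and 6.83 in controls and 6.96, 5.10 and 5.51 after heat shock, and they overlapped.

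All 14 genes of tubulin modification and mRNA control were tested, with 0 at an unadjusted p under 0.05. Their median log2 fold change was 0.52, against 0.45 for all genes, and for the 2 that averaged at least 10 FPKM it was 0.98 against 0.82. With the common factor, 1 was lower, against 2.46% of all genes, and the median was -0.18 against -0.24. It was VASH1, which removes the last tyrosine of alpha tubulin, named after its values were seen. AGBL5, which trims glutamates from tubulin tails, had the highest mean and the largest fold change, 1.29 ± 1.04 (SE, n = 3 against 3; limma, adjusted p = 0.711), at 16.2, 2.35 and 5.14 FPKM in controls and 12.5, 92.8 and 3.09 FPKM after heat shock. Weighted by length and divided by the common factor, AGBL5 was at 6.92, 4.08 and 4.03 in controls and 4.34, 6.22 and 7.03 after heat shock. TTLL1, which adds glutamates, had the smallest fold change, -0.41 ± 0.55 (SE, n = 3 against 3; limma, adjusted p = 0.721), at 8.46, 3.76 and 6.84 FPKM in controls and 3.60, 5.48 and 4.08 FPKM after heat shock. Weighted and divided as for AGBL5, TTLL1 was at 0, 0 and 1.72 in controls and 0.674, 1.42 and 0 after heat shock. TTC5, the factor that reads the start of the tubulin chain, had a log2 fold change of 0.14 (limma, adjusted p = 0.893).

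Heat shock factors bind inverted repeats of the unit GAA, so the promoters of the members (RefSeq, GRCh38.p14, 250 bases before to 50 after each start) were searched for GAANNTTC and TTCNNGAA, which read the same on both strands, and for 3 units in a row. All 10 members matched, with 15 promoters. GAANNTTC was present in 3 of the 15, against 6.77% of all 35116 promoters, and TTCNNGAA in 0, against 7.74%. Because starts of 1 gene can lie close together, the 3 promoters hold only 2 sites, shown with the match in capitals.
TUBB, plus strand, chr6:30720347-30720376: tctccctctcaGAACCTTCctgccgtcgcg
TUBA1C, plus strand, chr12:49227759-49227788: gccactaaggaGAAATTTCagtgatctgtg
The 3-unit forms, GAANNTTC followed by NNGAA and TTCNNGAA followed by NNTTC, were in 0 of the 15, against 0.259% and 0.268% of all promoters. A match describes the letters of the window and no binding was measured.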

How the data were processed

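Per the labels and the study's methods, the authors took reads through quality checks (FastQC 0.10.1) and trimming (Trimmomatic 0.3.0). Alignment was by tophat2 against hg19, and transcripts of every library were then assembled by Cufflinks 2.0.2, guided by a known annotation. The deposited assembly of each library gives an FPKM, a 95% interval and a coverage for every transcript. The deposited table of cuffdiff gives the authors' pooled FPKM of each group per merged locus. Its fold changes, p-values and q-values were not used. The files hold no counts of reads, so no test for counts was made.

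For each gene, FPKM was summed over annotated transcripts and over assembled ones that Cufflinks grouped with that gene alone. Values were put on the scale of log2(FPKM + 1), and genes that averaged 1 FPKM or more went into limma 3.58.1 (R 4.3.3; lmFit and eBayes with a trend), with Benjamini-Hochberg adjustment over all genes tested. Fold changes are on this scale, which understates low genes. Calls needed an adjusted p under 0.05 and more than 2-fold. Sequences were handled with Biopython 1.88.

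The members, the 5 lists of related genes and the common factor were chosen with earlier results of these data known. The text names all members, from each list the gene with the highest mean and those with the largest and smallest fold change, the 5 genes most like the summed tubulins, and the others where it says so. The alternatives were other pseudocounts, scalings, filters and sums, a replicate block, and leaving out each library. The sums by exon overlap (at least 50% of the exonic bases of an assembled transcript) and by length were added after the values were seen. The positions and sequences of the skipped stretches in TUBA1B and TUBA1C are not reported here.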

Additional observations from a re-analysis of the deposited data

Results flagged for a closer look

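The assembled TUBA1B transcript with a skipped stretch lay outside the sum of FPKM used for the comparison, since Cufflinks had grouped it with TUBA1A as well. It was at 784.6 FPKM in heat shock replicate 1 and at 989.7 FPKM in heat shock replicate 2, above the 197.6 FPKM of the highest control, control replicate 3. It was absent from control replicates 1 and 2 and from heat shock replicate 3. The skipped stretch differed in each library, and a shorter form has more FPKM for the same number of fragments. These FPKM are also not divided by the common factor, which was 2.15 and 2.34 in those heat shock libraries and 0.967 in control replicate 3.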

How the results depend on the processing

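In 0 of the alternatives was any of the 10 tubulin genes called. Few genes of any kind were: 0.023% of all as deposited and 0% with the common factor. Of the 5 lists 0 genes were called in any, except that 3 of 63 were with an unadjusted p in place of the adjusted one. By that rule 268 of 13026 genes were called higher and 209 lower. With a pseudocount of 0.1, no minimum FPKM, no trend or the primary chromosomes alone, 10 of 10 members stayed above 0. Values for single genes are log2 fold changes of (FPKM + 1), and those for sums are differences of log2 FPKM. Both are heat shock minus control unless stated, and the cause of each change was not tested. Most changes of direction came with the scale. With the common factor the fold changes as deposited turned below 0 for TUBA1A (-0.0810), TUBA1B (-0.69), TUBA4A (-0.379), TUBB (-0.0290), TUBB2A (-0.193), TUBB3 (-0.201) and TUBB6 (-0.0559). Median-of-ratios size factors gave -0.259 for TUBA1B and -0.175 for TUBA4A, and TPM gave -0.567 for TUBA1B, -0.488 for TUBA4A and -0.0936 for TUBB2A. With exon overlap and the common factor the values were -0.0842 for TUBA1A, -0.19 for TUBA4A, -0.0325 for TUBB, -0.196 for TUBB2A, -0.00102 for TUBB2B, -0.294 for TUBB3 and -0.0592 for TUBB6. With the weighting by length as well they were -0.0924 for TUBA1A, -0.343 for TUBA4A, -0.0372 for TUBB, -0.314 for TUBB2A, -0.388 for TUBB3 and -0.0604 for TUBB6.

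The alpha sum, 0.27 as deposited, was -0.603 with the common factor, -0.478 as TPM, 1.10 by exon overlap and 0.899 by exon overlap weighted by length. The sum of all 10 genes, 0.50 as deposited, was -0.371 with the common factor and -0.246 as TPM. The log2 alpha to beta ratio, -0.55 as deposited, was 0.273 by exon overlap and 0.0791 with the weighting. The TUBA1B share of alpha differed by -5.44 percentage points as deposited, by 0.721 by exon overlap and by 0.128 with the weighting. With annotated transcripts alone the TUBB share of beta differed by -7.48 points, against 0.682.

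Leaving out each library in turn, as deposited, with the common factor and with length weighting, gave fold changes of -0.131 to 1.38 for TUBA1A, -1.17 to 0.488 for TUBA1B, -0.0164 to 1.73 for TUBA1C, -0.742 to 0.315 for TUBA4A, -0.0734 to 1.53 for TUBB, -0.457 to 1.23 for TUBB2A, -0.161 to 1.61 for TUBB2B, -1.15 to 0.753 for TUBB3, -0.123 to 1.54 for TUBB6 and -0.0452 to 1.67 for TUBG1. The ranges were -1.03 to 0.577 for the alpha sum, -0.636 to 0.968 for the sum of all 10, -0.959 to 0.104 for the log2 ratio and -8.95 to 0.521 for the TUBA1B share in percentage points.

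The replicate numbers share only a number: same-numbered libraries correlated at 0.0266, -0.327 and -0.378 in their deviations from the group means, and not every library was most like its own number. With the replicate block 0 of 10 tubulin genes were called and the fold changes were those without it, on each scale where it was run; over all genes the block called 12 higher and 5 lower, against 2 and 1 without it. With the common factor, the genes of the 5 lists lower at an unadjusted p under 0.05 were 6 without the block and 3 with it. Over all 13815 genes they were 340 and 222. Without heat shock replicate 3, 10 of all genes were called.

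Depth is unknown in reads. As deposited, the interval of every member includes a 2-fold rise. By what was compared, members that share coding sequence with another member, and TUBB3 and TUBA4A with low values, are the least certain.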
